A study of Mus musculus with 48 samples.

Results

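Mouse genes known to respond to fasting, to the FOXO transcription factors or to both were followed through the lungs of A/J and C57BL/6J (B6) mice given welding fume. These 6 genes are Angptl4, Depp1 (also 8430408G22Rik), Pdk4, Cpt1a, Klf15 and Txnip, and they were taken from the array by gene symbol. Of these 6 genes, 5 had a named probe among the 15967 genes so named on the array, with 6 probes in all, and Txnip was not analysed here. The list was chosen by measured values of these same arrays. The paper counts Depp1 (as C10ORF10) among the genes changed in both strains 4 weeks after mild steel fume. It lists Angptl4 as upregulated in B6 lungs of the same time and fume. Its criteria, a fold change cutoff with a p threshold, differ from the adjusted p threshold used below. Which of the contrasts entered the choice is not recorded, so the differences of these genes between fume and sham and between strains are both given as a description. No p-value is printed for them. Where a member is said to have passed a threshold, or an interval is given, that too is a description. None of these values supports anything.

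Male A/J and B6 mice received 4 doses of 5 mg/kg of gas metal arc-mild steel fume (GMA-MS), the same doses of gas metal arc-stainless steel fume (GMA-SS) or the phosphate-buffered saline vehicle (sham), by pharyngeal aspiration. Whole lungs were taken 4 or 16 weeks after the last dose, 4 lungs for each of 12 groups, and their total RNA was hybridised to Illumina MouseRef-8 beadchips (version 1.1), on which oligonucleotide probes sit on many beads each. The mice were bought at 4 weeks of age, were wild-type animals of inbred strains and ate freely, and how long before necropsy each had last eaten is not given in the sources used here. The 8 beadchips held 6 arrays each, 1 of every group of a time point, so that replicate numbers name beadchips and the 4-week and 16-week lungs never shared one. Bulk lung RNA cannot tell apart fewer cells of a type and less RNA per cell.

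Fasting shifts fuel use toward fat. Low insulin lets FOXO factors stay in the nucleus, free fatty acids activate the PPAR nuclear receptors, and glucocorticoids rise, and these signals meet on an overlapping set of genes. Angptl4 is a secreted inhibitor of lipoprotein lipase, the enzyme that frees fatty acids from circulating triglycerides. Pdk4 is a kinase that shuts the pyruvate dehydrogenase complex and so spares glucose. Cpt1a carries long-chain fatty acids toward mitochondrial oxidation. Depp1 is a small protein first known as induced by progesterone and by fasting and is a direct FOXO target. Klf15 is a transcription factor of amino acid and glucose handling that glucocorticoids induce, and Txnip restrains glucose uptake and thioredoxin. In lung, Angptl4 and Pdk4 are also known from endothelium, macrophages and epithelium as PPAR targets.

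The promoters are shown for Pdk4, which varied most closely with Angptl4, for Klf15 and the 3 genes that varied most closely with it, and for Txnip because its window held the forkhead letters. The windows are the 250 bases before the RefSeq start (GRCm38.p6), and 5 of the 6 genes had one. Both strands were searched for TGTTTAC (forkhead, bound by FOXO), AGGTCA (the core of nuclear receptor elements), AGAACA (the core of glucocorticoid receptor elements) and CACGTG (E-box, bound by clock factors), none of which overlap each other here. Among 32851 windows of this length these letters were present in 3.17%, 14%, 16.1% and 6.02%, in that order. The Klf15 window (chr6:90462326-90462575, plus strand) held the E-box 228 and 172 bases before the start. The Per1 window (chr11:69098699-69098948, plus strand), 1 of those listed for that gene, the other of which held none of the motifs, held it 166 bases before the start, and AGGTCA 137 bases before it. The Klf9 window (chr19:23140976-23141225, plus strand) and the Txnip window (chr3:96557707-96557956, plus strand) held the forkhead letters on the reverse strand, 100 and 121 bases before the start. The Cpt1a window held AGGTCA, and the windows of Depp1, Pdk4 (chr6:5496279-5496528, minus strand) and Ddit4 (chr10:59951771-59952020, minus strand) held none of the 4 motifs. Capitals mark the matched letters, CACGTG in Klf15 and Per1 and the reverse complement of TGTTTAC in Klf9 and Txnip, in sequences that belong to the B6 reference genome.
Pdk4: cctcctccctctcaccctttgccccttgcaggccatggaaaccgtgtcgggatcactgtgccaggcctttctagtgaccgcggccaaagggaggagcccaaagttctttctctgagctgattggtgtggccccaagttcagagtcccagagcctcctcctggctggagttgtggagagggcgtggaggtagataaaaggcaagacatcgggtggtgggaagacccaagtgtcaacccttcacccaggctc
Klf15: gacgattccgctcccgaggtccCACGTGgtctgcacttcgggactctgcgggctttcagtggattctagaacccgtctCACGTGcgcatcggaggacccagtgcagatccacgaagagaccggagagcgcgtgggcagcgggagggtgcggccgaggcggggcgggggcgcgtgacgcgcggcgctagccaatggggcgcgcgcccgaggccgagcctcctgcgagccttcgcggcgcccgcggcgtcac
Ddit4: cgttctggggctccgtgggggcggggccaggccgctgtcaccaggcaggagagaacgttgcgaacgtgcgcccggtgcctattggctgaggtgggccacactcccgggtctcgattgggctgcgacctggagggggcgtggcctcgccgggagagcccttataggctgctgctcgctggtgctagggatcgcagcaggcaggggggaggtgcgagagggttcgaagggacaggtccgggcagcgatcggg
Per1: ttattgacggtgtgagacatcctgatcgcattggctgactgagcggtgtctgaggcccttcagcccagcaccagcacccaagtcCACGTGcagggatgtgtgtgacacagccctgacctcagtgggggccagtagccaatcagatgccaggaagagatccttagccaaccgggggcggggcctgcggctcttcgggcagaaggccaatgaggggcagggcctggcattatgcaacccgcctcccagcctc
Klf9: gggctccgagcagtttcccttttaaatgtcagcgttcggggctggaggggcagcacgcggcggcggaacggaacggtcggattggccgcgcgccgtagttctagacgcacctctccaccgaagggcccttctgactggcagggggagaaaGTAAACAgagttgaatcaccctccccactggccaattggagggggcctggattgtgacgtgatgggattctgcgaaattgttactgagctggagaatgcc
Txnip: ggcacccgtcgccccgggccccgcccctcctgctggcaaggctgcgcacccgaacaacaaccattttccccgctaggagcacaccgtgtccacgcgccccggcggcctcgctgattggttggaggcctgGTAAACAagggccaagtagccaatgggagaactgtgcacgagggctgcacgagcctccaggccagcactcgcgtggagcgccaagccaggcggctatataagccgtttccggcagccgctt

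Levels below are log2 intensities, corrected for background and quantile normalised within a time point. The detection p of a probe is the chance of such a signal among negative control probes, and a gene entered the tests of a time point if that p fell below 0.01 on 4 or more of its 24 arrays. By that filter 8687 genes were tested for the earlier time and 8706 for the later one. The arrays detected 9990 to 11421 probes at 4 weeks and 10594 to 11567 at 16 weeks, with 34 to 36 beads behind the median probe. Lung identity was clear in every array: of 10 lung markers, 9 were detected in all 48, among them Sftpc and Scgb1a1, while Foxj1 of ciliated cells was detected in 5. Markers of muscle, squamous epithelium and fat were detected too, with differences inside each list. The cardiac muscle genes Tnnt2 and Myl7 were detected in all 48 arrays and Ryr2 in 0. Of skeletal muscle genes, Atp2a1 was detected in all 48, Acta1 in 42 and Myh4 in 3. Of squamous epithelium genes, Sbsn was detected in all 48, Krt13 in 31 and Sprr1a in 11. The adipocyte gene Adipoq was detected in all 48 and Fabp4 in 0.

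Angptl4, Pdk4, Depp1 and Klf15 were detected in 24 of 24 arrays at both times and passed the filter. Cpt1a did not pass it. Its log2 level lay between 7.38 and 7.53 at 4 weeks and between 7.30 and 7.41 at 16 weeks, with detection p values from 0.135 to 0.970 and 0 of 48 arrays detected. Its probe was thus at background in every lung, and no difference could be read from it. The remaining 4 genes differed in how widely single lungs were spread. From the lowest to the highest of the 24 lungs at 4 weeks, Pdk4 spanned a 4.92-fold range, Angptl4 a 4.63-fold range, Klf15 a 3.52-fold range and Depp1 a 2.23-fold range. At 16 weeks the ranges were 3.28-fold for Pdk4, 3.71-fold for Angptl4, 1.82-fold for Klf15 and 2.49-fold for Depp1. The SD between lungs of a group, pooled over groups, was highest for Angptl4, at 0.50 at 4 weeks and 0.59 at 16 weeks, and lowest for Depp1 at 4 weeks (0.30) and for Klf15 at 16 weeks (0.20). The standard error over the beads of a probe was at most 6.61% of its intensity for these 4 genes.

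Angptl4, the lipoprotein lipase inhibitor, had the widest scatter inside groups. At 4 weeks, A/J lungs read 12.33, 10.45, 11.67 and 12.14 after GMA-MS and 11.45, 11.25, 11.91 and 12.66 after GMA-SS, against 11.50, 12.10, 11.80 and 12.09 in sham. The 3 groups overlapped, and 1 GMA-MS lung (replicate 2) lay more than a log2 unit under the other 3. In B6 mice the 4 GMA-MS lungs read 12.07, 11.10, 11.63 and 12.17 and the GMA-SS lungs 11.10, 11.34, 11.13 and 11.41, against 11.11, 11.00, 10.80 and 11.11 in sham. Here 3 of the 4 GMA-MS lungs lay above all sham lungs, and the fourth was level with the highest of them. At 16 weeks, A/J lungs read 11.86, 11.35, 12.07 and 10.64 after GMA-MS and 11.25, 11.34, 11.87 and 12.05 after GMA-SS, against 10.37, 11.79, 10.50 and 11.50 in sham. The B6 lungs of that time read 10.88, 11.39, 11.85 and 10.72 after GMA-MS and 10.59, 11.52, 12.19 and 10.61 after GMA-SS, against 10.29, 10.80, 10.48 and 11.20 in sham. All fume groups of 16 weeks overlapped sham of their strain.

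The array holds a second, dimmer Angptl4 probe, at log2 levels of 7.66 to 8.55 at 4 weeks and 7.66 to 8.63 at 16 weeks, detected in 15 and 21 of 24 arrays. Its deviations from the group means followed those of the brighter probe over the 48 lungs (Pearson's r = 0.92). The lung to lung differences in Angptl4 were therefore seen by both probes of the same RNA samples.

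Pdk4, the pyruvate dehydrogenase kinase, separated the strains more than the exposures. At 4 weeks, A/J lungs read 11.05, 9.77, 10.20 and 10.92 after GMA-MS and 10.38, 10.91, 10.78 and 11.12 after GMA-SS, against 10.58, 10.73, 10.64 and 10.82 in sham. B6 lungs read 10.14, 9.27, 9.28 and 10.20 after GMA-MS and 8.82, 9.19, 9.48 and 9.15 after GMA-SS, against 9.09, 9.96, 8.91 and 9.21 in sham. The A/J lung with the lowest Pdk4 was the one with the lowest Angptl4, and it was the only A/J lung of 4 weeks that a B6 sham lung exceeded. At 16 weeks, A/J lungs read 10.27, 9.80, 10.45 and 9.58 after GMA-MS and 9.54, 9.67, 10.03 and 10.44 after GMA-SS, against 8.99, 10.04, 9.12 and 10.49 in sham. The B6 lungs read 9.12, 8.99, 8.85 and 8.80 after GMA-MS and 8.98, 9.29, 9.52 and 9.05 after GMA-SS, against 9.30, 8.78, 8.98 and 8.97 in sham. Both the high and the low A/J sham lungs of 16 weeks, a pair near 10 and above and a pair near 9, were the high and the low ones for Angptl4 as well.

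Depp1, the FOXO target, had the narrowest groups at 4 weeks. At 4 weeks, A/J lungs read 11.73, 11.68, 10.77 and 11.58 after GMA-MS and 11.21, 11.20, 10.97 and 11.49 after GMA-SS, against 10.73, 11.01, 10.70 and 11.14 in sham. After GMA-MS 3 of 4 A/J lungs lay above all sham lungs, and replicate 3 lay among them. B6 lungs read 11.04, 11.52, 11.36 and 11.71 after GMA-MS and 10.62, 11.16, 10.58 and 11.32 after GMA-SS, against 10.85, 10.65, 10.72 and 10.78 in sham. The GMA-MS and sham lungs of B6 mice did not overlap, whereas the GMA-SS lungs fell into a pair above and a pair below the sham lungs. At 16 weeks, A/J lungs read 10.88, 11.36, 11.63 and 11.30 after GMA-MS and 10.87, 11.03, 11.38 and 11.32 after GMA-SS, against 11.01, 11.24, 10.49 and 10.97 in sham. B6 lungs read 10.80, 10.95, 10.86 and 11.05 after GMA-MS and 10.76, 11.23, 10.80 and 10.82 after GMA-SS, against 10.31, 10.40, 10.57 and 10.64 in sham. In B6 mice of 16 weeks, neither fume group overlapped sham.

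Klf15, the glucocorticoid-induced factor, was the member whose spread differed most between the times. At 4 weeks, A/J lungs read 10.12, 10.03, 10.05 and 9.70 after GMA-MS and 9.88, 10.18, 10.26 and 10.83 after GMA-SS, against 9.05, 10.57, 9.05 and 9.89 in sham. The A/J sham lungs thus spread from 9.05 to 10.57 and enclosed all GMA-MS lungs. B6 lungs read 9.24, 9.70, 9.56 and 9.76 after GMA-MS and 9.43, 9.52, 9.80 and 9.67 after GMA-SS, against 9.06, 9.36, 9.01 and 9.28 in sham. The GMA-SS and sham lungs of B6 mice did not overlap. At 16 weeks, A/J lungs read 8.36, 8.69, 8.82 and 8.71 after GMA-MS and 8.68, 9.02, 9.02 and 9.22 after GMA-SS, against 8.99, 9.14, 8.75 and 9.06 in sham. B6 lungs read 8.61, 8.62, 8.70 and 8.86 after GMA-MS and 8.74, 9.06, 8.94 and 8.68 after GMA-SS, against 8.80, 9.20, 8.53 and 8.91 in sham. In A/J mice of this time 3 of 4 GMA-MS lungs lay below all sham lungs.

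**Figure D1:**
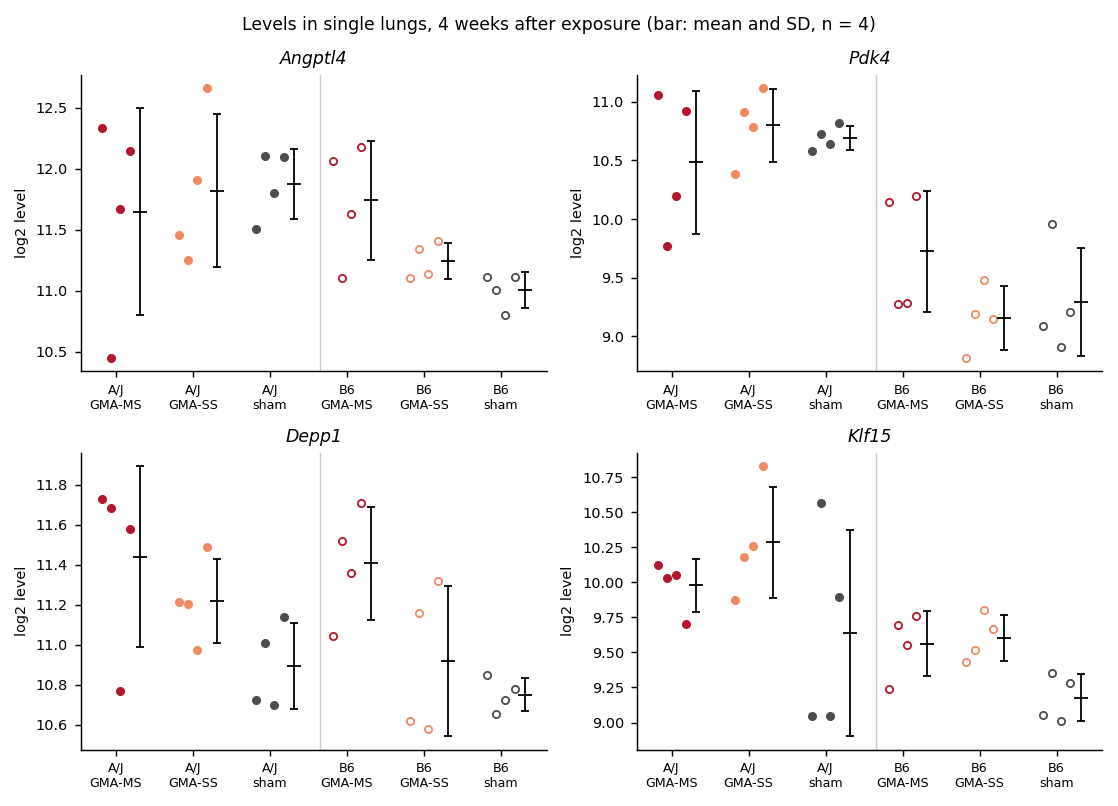
Log2 level (vertical axis, background-corrected and quantile-normalised intensity) of Angptl4, Pdk4, Depp1 and Klf15 in each of the 24 lungs taken 4 weeks after exposure, by group (horizontal axis), filled circles for A/J and open circles for B6, with a bar for mean and SD of 4 lungs. All Pdk4 values of B6 sham lungs lie under those of A/J sham lungs, and the Depp1 values of B6 GMA-MS lungs lie above those of B6 sham lungs.

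**Figure D2:**
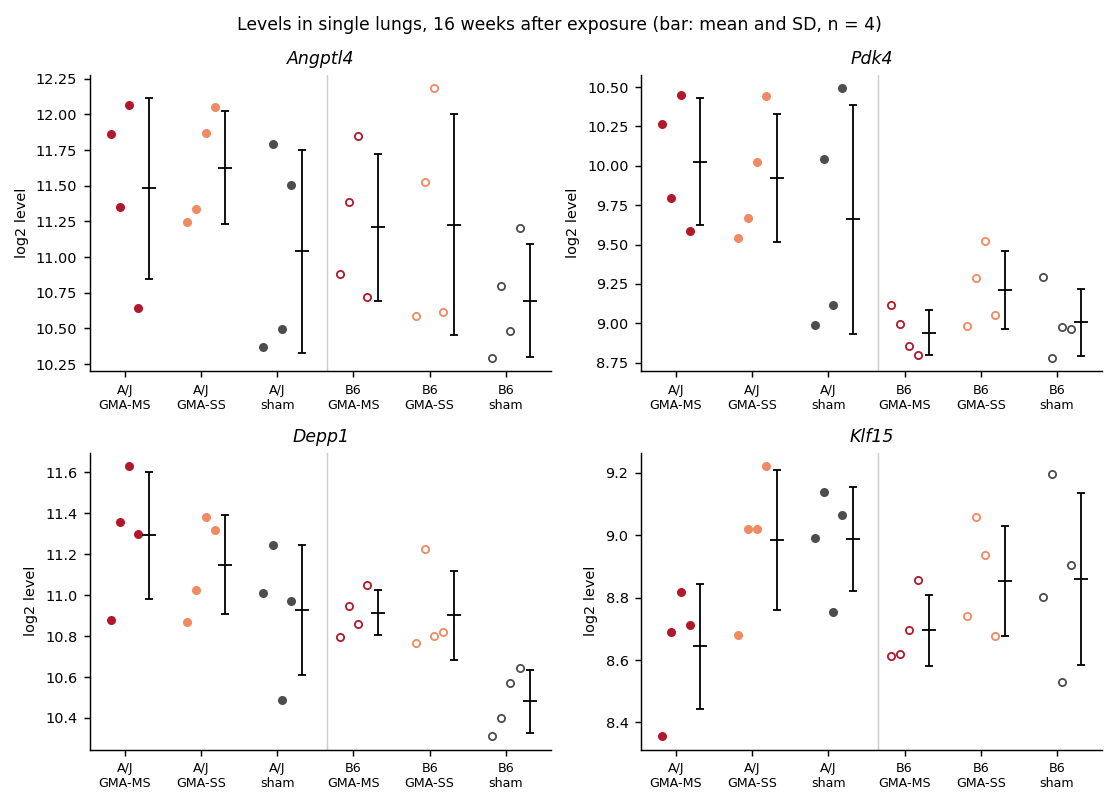
Log2 level (vertical axis) of the same 4 genes in the 24 lungs taken 16 weeks after exposure, drawn in the same way, with a bar for mean and SD of 4 lungs. Depp1 in both B6 fume groups lies above B6 sham, and the A/J sham lungs form a high and a low pair for Angptl4 and for Pdk4.

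Differences between fume and sham were fitted with limma over all genes of a time point, and 0 of the 4 tested members passed an adjusted p of 0.05 in any of the 8 comparisons. The share of all genes called was 0.196% for A/J GMA-MS at 4 weeks, 0.23% for A/J GMA-SS, 0.0806% for B6 GMA-MS and likewise 0.0806% for B6 GMA-SS. At 16 weeks it was 0.023% for A/J GMA-MS, 0.0345% for A/J GMA-SS, 0.149% for B6 GMA-MS and 0% for B6 GMA-SS. With an unadjusted p under 0.05 instead, the 4-week comparisons held 1, 1, 2 and 0 members and the 16-week comparisons 2, 0, 1 and 1, in that order. The share of all genes past that unadjusted threshold was 7.39%, 5%, 3.86% and 3.61% at 4 weeks and 8.44%, 5.89%, 9.49% and 4.1% at 16 weeks. A gene had all 4 fume lungs above all 4 sham lungs for 1.97%, 1.15%, 1.88% and 1.37% of all genes at 4 weeks and for 2.26%, 0.896%, 3.63% and 1.17% at 16 weeks, again in that order. This was so for 1 member, Depp1, in B6 mice after GMA-MS at 4 weeks and after either fume at 16 weeks, and for 1 member, Klf15, in B6 mice after GMA-SS at 4 weeks. Since these contrasts may have entered the choice of the genes, nothing is read from those counts.

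Depp1 had a fitted log2 difference above 0 in each of these comparisons, which share their sham lungs in pairs. In the GMA-MS comparisons it was 0.55 ± 0.20 in A/J and 0.66 ± 0.20 in B6 mice at 4 weeks (SE, n = 4 per group), and 0.36 ± 0.16 and 0.43 ± 0.16 at 16 weeks. In the GMA-SS comparisons it was 0.33 ± 0.20 in A/J and 0.17 ± 0.20 in B6 mice at 4 weeks, and 0.22 ± 0.16 and 0.42 ± 0.16 at 16 weeks. Taken by beadchip, which pairs 1 fume lung with 1 sham lung, Depp1 was higher in the fume lung of 4 of 4 pairs for both A/J comparisons of 4 weeks, for B6 GMA-MS at 4 weeks and for both B6 comparisons of 16 weeks. It was higher in 2 of 4 pairs for B6 GMA-SS at 4 weeks, in 3 of 4 for A/J GMA-MS at 16 weeks and in 2 of 4 for A/J GMA-SS at 16 weeks. With arrays scaled to the median of all probes, which put the median difference of all genes between -0.39 and 0.78, Depp1 lay 0.21 to 0.69 above that median.

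Angptl4 was placed on either side of sham. Its fitted difference after GMA-MS was -0.23 ± 0.32 in A/J and 0.74 ± 0.32 in B6 mice at 4 weeks (SE), and the B6 fume lung was the higher in 4 of 4 beadchip pairs. The A/J minus B6 difference in that effect was -0.96 ± 0.46. Without the low A/J lung, replicate 2, the A/J difference was 0.17. After GMA-SS at 4 weeks the differences were -0.06 ± 0.32 in A/J and 0.24 ± 0.32 in B6 mice. At 16 weeks all 4 values were positive, at 0.44 and 0.59 for A/J and 0.51 and 0.53 for B6 mice (GMA-MS before GMA-SS), each ± 0.38.

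Pdk4 had fitted differences between -0.21 ± 0.27 (A/J GMA-MS, 4 weeks) and 0.43 ± 0.27 (B6 GMA-MS, 4 weeks), with 0.36 ± 0.26 in A/J GMA-MS lungs of 16 weeks. No Pdk4 difference exceeded 2 of its standard errors. For Klf15 the 4-week differences were 0.34 and 0.65 in A/J and 0.39 and 0.43 in B6 mice (GMA-MS before GMA-SS), each ± 0.25. Their size in A/J mice depended on the high sham lung, replicate 2, without which the GMA-SS difference was 0.96 ± 0.20. At 16 weeks the Klf15 differences were -0.34 and -0.00 in A/J and -0.16 and -0.01 in B6 mice, each ± 0.13.

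**Figure D3:**
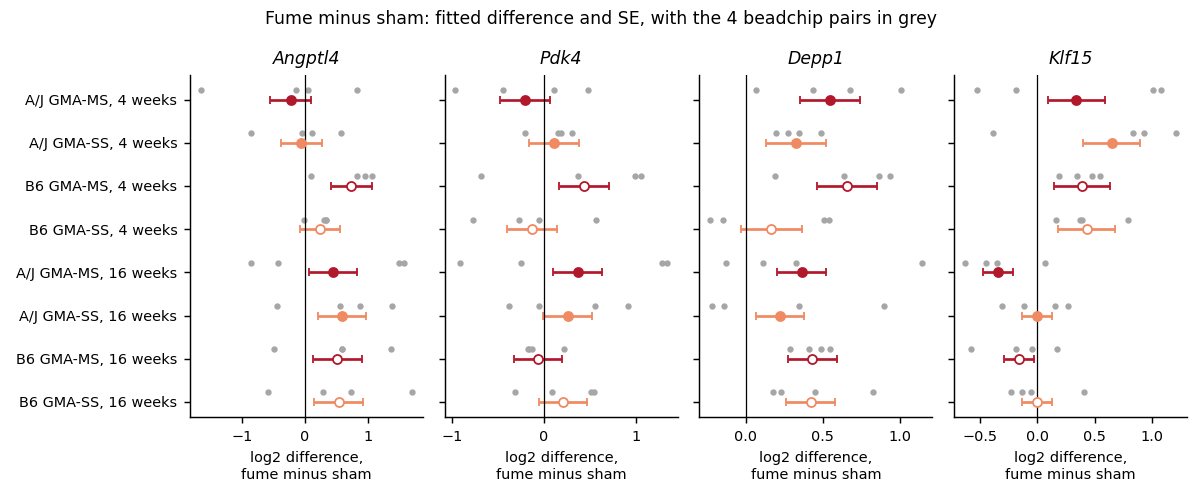
Fitted log2 difference, fume minus sham (horizontal axis, bars of 1 SE), of Angptl4, Pdk4, Depp1 and Klf15 in the 8 comparisons (rows), filled for A/J and open for B6, with the 4 differences within a beadchip as grey points. Depp1 lies right of 0 in every row, between 0.17 and 0.66, while the grey points of Angptl4 and Pdk4 fall on both sides of 0 in most rows.

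The strains were compared over the 3 exposures together. Pdk4 was higher in A/J lungs at both times. At 4 weeks it averaged 10.66 ± 0.39 in A/J and 9.39 ± 0.46 in B6 lungs (SD, n = 12 each), a fitted log2 difference of 1.27 ± 0.16 (SE), or 2.41-fold. At 16 weeks it averaged 9.87 ± 0.51 in A/J and 9.05 ± 0.22 in B6 lungs, a difference of 0.82 ± 0.15, or 1.76-fold. Within exposures of 4 weeks, the A/J minus B6 difference was 0.76 after GMA-MS, 1.64 after GMA-SS and 1.40 in sham, with the A/J lung higher on 4 of 4 beadchips each time. At 16 weeks it was 1.08, 0.71 and 0.66 in the same order, on 4, 4 and 3 of 4 beadchips.

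Klf15 was also higher in A/J lungs at 4 weeks, at 9.97 ± 0.53 against 9.45 ± 0.26 in B6 (SD, n = 12 each), a difference of 0.52 ± 0.14 (SE, 1.43-fold). At 16 weeks its difference was 0.07 ± 0.08, with a 95% interval from -0.09 to 0.23. Depp1 showed the other order. It was higher in A/J lungs at 16 weeks, at 11.12 ± 0.31 against 10.77 ± 0.26 in B6, a difference of 0.36 ± 0.09 (1.28-fold), and at 4 weeks its difference was 0.16 ± 0.11 with a 95% interval from -0.08 to 0.39. Whether the strain differences of Klf15 and Depp1 differ between times was not tested. Angptl4 averaged 11.78 ± 0.58 in A/J and 11.33 ± 0.42 in B6 lungs at 4 weeks, a difference of 0.45 ± 0.19, and its difference at 16 weeks was 0.34 ± 0.22. Within exposures of 4 weeks the Angptl4 difference was -0.10 after GMA-MS, 0.57 after GMA-SS and 0.87 in sham. The A/J lung was higher on 2, 3 and 4 of 4 beadchips, in that order. At 16 weeks the differences were 0.27, 0.40 and 0.35, on 2, 2 and 4 of 4 beadchips. Of the 4 genes 2 passed an adjusted p of 0.05 (limma) with higher levels in A/J lungs at each time, Pdk4 and Klf15 at 4 weeks and Pdk4 and Depp1 at 16 weeks, against a background of 20.5% of all genes at 4 weeks and 26.3% at 16 weeks. As strain may have entered the choice of the genes, nothing is read from these counts. With the beadchip as a replicate block Angptl4 passed as well at 4 weeks, when 4695 of 8687 genes were called, against 3348 without the block. With arrays scaled to the median of all probes 0 of the 4 passed at either time, while the differences grew less than their errors. Of all genes 149 of 8687 at 4 weeks and 269 of 8706 at 16 weeks were called under that scaling, against 3348 and 4017 with quantile normalisation. Pdk4 then had 1.39 ± 0.45 at 4 weeks and 1.19 ± 0.37 at 16 weeks, Klf15 had 0.60 ± 0.43 at 4 weeks and Depp1 had 0.75 ± 0.33 at 16 weeks (SE). The median strain difference of all genes was itself 0.10 at 4 weeks and 0.35 at 16 weeks under that scaling. Relative to that median Pdk4 lay at 1.29 and 0.84, Klf15 at 0.50 at 4 weeks and Depp1 at 0.40 at 16 weeks. Differences between the strains in the sequence under a probe were not analysed here.

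Markers of fat, muscle and squamous epithelium differed between strains as well, in both directions. Of 12 adipocyte markers, 11 had a probe. Their summed corrected intensity at 4 weeks was 14297 to 53848 across A/J lungs and 6771 to 23519 across B6 lungs, and at 16 weeks it was 11177 to 21618 across A/J lungs and 7160 to 14003 across B6 lungs. The brown fat gene Ucp1 was 24.7-fold higher in A/J lungs at 4 weeks (limma adjusted p = 1.06e-06) and 7.63-fold higher at 16 weeks (adjusted p = 7.49e-06). Of the other adipocyte markers, Adipoq, Car3, Cidec and Plin4 were detected in 48 of 48 arrays and Cidea in 47. Slc2a4 was detected in 9 arrays and Lep in 8, and Retn, Plin1 and Fabp4 were at background in 48 of 48. The sum of skeletal muscle markers (9 of 11 with a probe) at 4 weeks was 3478 to 86956 across A/J lungs and 2190 to 78607 across B6 lungs. At 16 weeks it was 2577 to 57585 across A/J lungs and 1853 to 60486 across B6 lungs. Acta1, the actin of skeletal muscle, was 6.42-fold higher in A/J lungs at 4 weeks (limma adjusted p = 0.0488). The share of all genes called lower in A/J lungs was 18.1% at 4 weeks and 19.8% at 16 weeks, beside the 20.5% and 26.3% called higher. At 4 weeks 5 of 7 adipocyte, 5 of 8 skeletal muscle, 5 of 9 squamous epithelium and 3 of 9 cardiac muscle markers tested were called higher in A/J lungs, and 1 cardiac muscle marker lower. At 16 weeks 3 of 8 adipocyte markers were called higher and 0 lower, 0 of 8 skeletal muscle markers were called, 1 of 9 squamous epithelium markers was lower, and 4 of 9 cardiac muscle markers were lower with a median log2 difference of -0.24. Between lungs of a group, Pdk4 had r = 0.16 with the mean level of the adipocyte markers over 48 lungs (0.25 at 4 weeks and 0.01 at 16 weeks). With that of the skeletal muscle markers it had r = 0.12 (0.29 and -0.08). Such values within groups cannot speak to a difference between strains. The part of these tissues in the strain difference of Pdk4 was not tested.

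Other genes of the same pathways gave the following in the strain comparison. Of 30 genes of fasting and PPAR-driven fatty acid oxidation, 13 were tested at 4 weeks, and 7 were higher and 0 lower in A/J lungs, against 20.5% and 18.1% of all genes, with a median log2 difference of 0.19 against 0.02 over all genes. The largest was Plin2, the lipid droplet coat protein, at 0.57 ± 0.06 (SE, limma adjusted p = 6.19e-08), and Acadvl, Hadhb, Ech1, Cpt2 and Acaa2, enzymes of mitochondrial or peroxisomal fatty acid oxidation, lay between 0.20 and 0.29. At 16 weeks 4 of 14 were higher and 1 lower, a share of higher genes near the 26.3% of all genes and with 19.8% of all genes lower, with a median of 0.07 against 0.02 over all genes. Plin2 was again higher, at 0.50 ± 0.06 (adjusted p = 3.28e-07), and the lower gene was the coactivator Ppargc1a at -0.28 ± 0.06 (adjusted p = 0.000322). FOXO factors and targets were called in both directions, 3 higher and 5 lower of 15 at 4 weeks and 2 higher and 5 lower of 15 at 16 weeks, beside shares of all genes of 20.5% higher and 18.1% lower at 4 weeks and 26.3% higher and 19.8% lower at 16 weeks. The share of FOXO genes called higher at 4 weeks was thus that of all genes. The cell cycle inhibitor Cdkn1a was the highest of them, at 0.78 ± 0.12 at 4 weeks (adjusted p = 1.24e-05) and 0.61 ± 0.08 at 16 weeks (adjusted p = 9.58e-07), and catalase (Cat) the lowest, at -0.46 ± 0.08 (adjusted p = 6.06e-05) and -0.34 ± 0.04 (adjusted p = 2.33e-07). Of the glucocorticoid responsive genes, 10 were higher and 1 lower of 16 at 4 weeks, with a median of 0.31, and at 16 weeks 4 of 17 were higher, a share near that of all genes, 2 were lower and the median was 0.11. Zbtb16 (0.76 ± 0.22), Dusp1 (0.58 ± 0.08), Fkbp5 (0.55 ± 0.15) and Tsc22d3 (0.37 ± 0.11) were among those higher at 4 weeks. Of the lipid synthesis genes raised by feeding, 6 were higher and 0 lower of 9 at 4 weeks and 5 were higher and 0 lower of 9 at 16 weeks.

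**Figure D4:**
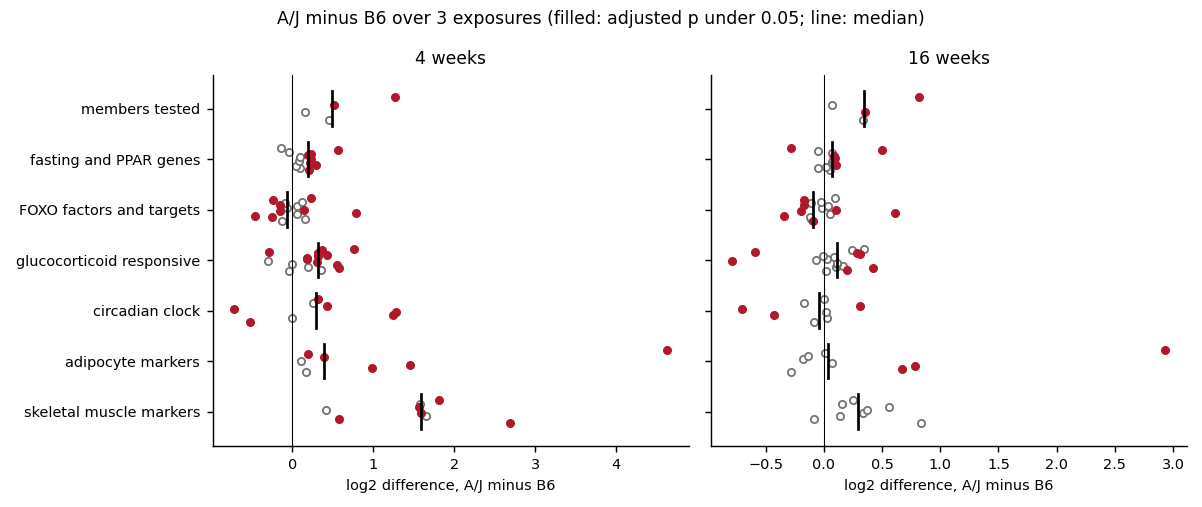
Log2 difference, A/J minus B6 over 3 exposures (horizontal axis), of each tested gene in 7 lists (rows) at 4 weeks (left) and 16 weeks (right), filled where the adjusted p was under 0.05, with a line at the list's median. Among the members Pdk4 lies farthest right, at 1.27 and 0.82, and among the adipocyte markers Ucp1 lies beyond all other genes drawn.

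Against sham, these lists held few calls. Of the fasting and PPAR genes, the FOXO genes and the glucocorticoid responsive genes, 0 were called in any of the 8 comparisons (limma). At an unadjusted p under 0.05 the most were reached by the glucocorticoid responsive genes of A/J mice at 4 weeks, with 6 higher and 1 lower of 16 after GMA-MS and 5 higher and 1 lower after GMA-SS. The shares of all genes at that threshold were 4.48% higher and 2.91% lower after GMA-MS and 2.01% higher and 2.98% lower after GMA-SS. Their median log2 difference was 0.07 after GMA-MS and 0.34 after GMA-SS, against -0.01 and -0.02 over all genes. The lipid synthesis genes raised by feeding also had 0 calls, with medians from -0.15 to 0.04. Immediate early genes, a further list, had 4 of 9 tested called lower in B6 mice 4 weeks after GMA-MS and 3 of 9 after GMA-SS. Of all genes 0.0806% were called in each of these comparisons. In A/J mice of that time 0 immediate early genes were called. Of the 8 clock genes tested, Dbp was 4.45-fold higher (limma adjusted p = 0.0092) and Tef 1.52-fold higher (adjusted p = 0.0448) in A/J mice 4 weeks after GMA-MS, where 0.196% of all genes were called. At 16 weeks Nr1d1 was 1.91-fold higher in A/J (adjusted p = 0.0293) and 2.40-fold higher in B6 lungs (adjusted p = 0.000413) after GMA-MS, and in these B6 lungs Dbp was 1.74-fold higher (adjusted p = 0.0111) and Per2 lower, at a log2 difference of -0.81 (adjusted p = 0.0404).

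With all 48 arrays normalised together, the 12 group means of each member could be put in order. For Pdk4 the 6 A/J groups came before the 6 B6 groups, from 10.67 ± 0.31 (A/J GMA-SS, 4 weeks) to 9.03 ± 0.27 (B6 GMA-SS, 4 weeks, SD, n = 4 each), yet in 0 of 11 steps did neighbours differ by more than the larger SD. Depp1 ran from 11.45 ± 0.32 (A/J GMA-MS, 16 weeks) to 10.62 ± 0.08 (B6 sham, 4 weeks), likewise with 0 of 11 steps beyond the SD, and the B6 sham groups of both times were its lowest. Angptl4 ran from 11.79 ± 0.40 (A/J GMA-SS, 16 weeks) to 10.84 ± 0.40 (B6 sham, 16 weeks), and 1 of 11 steps exceeded the SD, that from B6 GMA-SS down to B6 sham at 4 weeks. Klf15 ran from 10.16 ± 0.39 (A/J GMA-SS, 4 weeks) to 8.78 ± 0.21 (A/J GMA-MS, 16 weeks), and 1 of 11 steps exceeded the SD. That step separated the 5 highest groups, all of 4 weeks, from the rest. Over all groups Klf15 averaged 9.58 at 4 weeks and 8.97 at 16 weeks, Pdk4 9.90 and 9.60, Angptl4 11.41 and 11.37, and Depp1 10.97 and 11.09. Time, age and beadchip cannot be told apart in these differences.

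Lungs of a group varied together for some of these genes. The correlations that follow use each lung's deviation from the mean of its group, over 48 lungs that share beadchips, and are a description for 6 pairs of members. Angptl4 and Pdk4 varied together most, with Pearson's r = 0.70 and Spearman's rho = 0.71. The value was 0.71 at 4 weeks and 0.70 at 16 weeks, 0.67 without the 2 lungs farthest from the Angptl4 median, and 0.74 after each beadchip was centred. Among the 8493 other genes tested at both times, Pdk4 had the highest r with Angptl4, and Angptl4 the highest r with Pdk4. Depp1 and Klf15 followed each other at r = 0.42 (0.33 at 4 weeks and 0.63 at 16 weeks), and 0.22 after the beadchips were centred. The remaining pairs lay between 0.22 and 0.32, so Depp1 did not share much of the lung to lung variation of Angptl4 (r = 0.27) or Pdk4 (r = 0.22).

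The genes most like Angptl4 after Pdk4 were Hilpda (r = 0.70), which coats lipid droplets and inhibits their lipase, and Lrrc26 (r = 0.67), a subunit of potassium channels. Those most like Pdk4 after Angptl4 were Prkd2 (r = 0.58), a protein kinase, and Nomo1 (r = 0.56), a membrane protein of the endoplasmic reticulum. Klf15 had the strongest partners of all members. They were Klf9 (r = 0.87), a related zinc finger factor that glucocorticoids induce, Ddit4 (r = 0.82), an inhibitor of mTORC1, and Per1 (r = 0.81), a clock gene with a glucocorticoid response. Klf9 held at 0.89 at 4 weeks and 0.83 at 16 weeks, whereas Ddit4 had 0.93 at 4 weeks and 0.24 at 16 weeks. Per1 had 0.89 at 4 weeks and 0.56 at 16 weeks. The partners of Depp1 were Fam114a2 (r = 0.68), Atrip (r = 0.68), which acts with the kinase ATR in the DNA damage response, and Fermt3 (r = 0.67), an integrin activator of blood cells, and after the beadchips were centred these were 0.43, 0.62 and 0.38.

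Set against the mean level of whole lists, members excluded, Klf15 followed the 16 glucocorticoid responsive genes (r = 0.86, with 0.89 at 4 weeks and 0.76 at 16 weeks) and the 8 clock genes (r = 0.80, with 0.81 and 0.76). These lists share Per1, and the first holds all 3 partners of Klf15 named above. Angptl4 followed the 15 FOXO factors and targets (r = 0.59, with 0.72 at 4 weeks and 0.49 at 16 weeks), as did Pdk4 (r = 0.53) and Klf15 (r = 0.51), while Depp1 did so at r = 0.22. The 13 fatty acid oxidation genes gave r = 0.28 with Angptl4 (0.10 at 4 weeks and 0.52 at 16 weeks) and 0.35 with Pdk4 (0.24 and 0.53). With Depp1 they gave r = -0.19 (-0.37 and 0.13) and with Klf15 r = -0.28 (-0.51 and 0.34). The 12 hypoxia responsive genes, which include neither Angptl4 nor Hilpda, had r = -0.63 with Angptl4 at 16 weeks and -0.03 at 4 weeks. With Depp1, Pdk4 and Klf15 they had -0.51, -0.37 and -0.56 at 16 weeks, and -0.02, 0.03 and 0.28 at 4 weeks. Angptl4 at 16 weeks also had r = -0.56 with the skeletal muscle markers and -0.51 with the squamous epithelium markers, against 0.07 and -0.07 at 4 weeks.

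**Figure D5:**
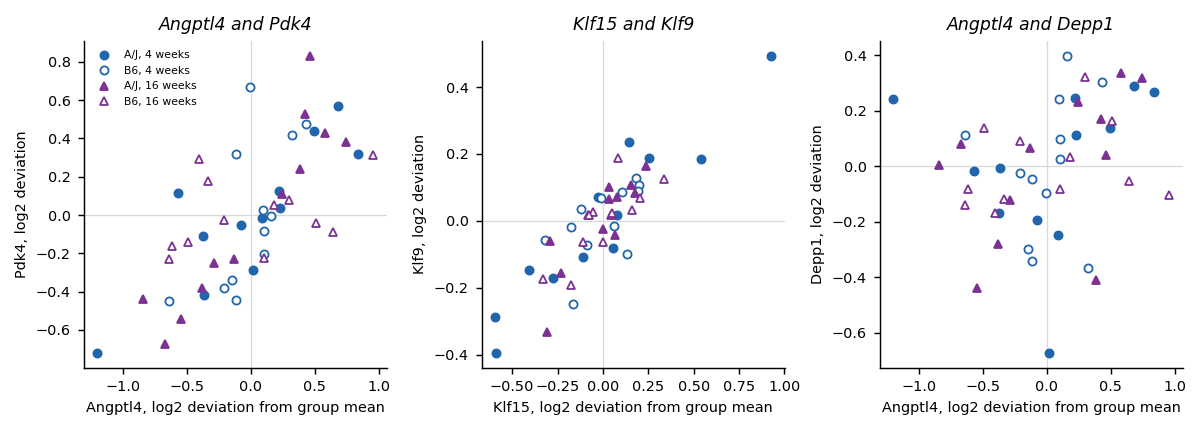
Deviation of each of 48 lungs from its group mean (log2) for Angptl4 against Pdk4 (left), Klf15 against Klf9 (middle) and Angptl4 against Depp1 (right), circles for 4 weeks and triangles for 16 weeks, filled for A/J and open for B6. The points rise together in the left (r = 0.70) and middle (r = 0.87) panels, and much less in the right one (r = 0.27).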

How the data were processed

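The authors exported mean bead intensity values per probe from BeadStudio without normalisation and deposited them with bead standard errors, bead numbers and detection p-values. They also deposited log2 values made with lumi (force-positive background correction, variance stabilisation, robust spline normalisation), used here as an alternative. Genome builds were not needed for the arrays, and probes were named through Entrez IDs in GEO's platform annotation: 20984 of 24613 probes had 1 gene, 1 had several and 3628 had none. From the intensities, neqc of limma 3.58.1 in R 4.3.3 (offset 16) gave log2 levels, quantile normalised within a time point. Of several probes the one with the highest mean signal stood for a gene. The fit had the 6 groups of a time point, with Benjamini-Hochberg adjustment over all genes tested and a call at 0.05, and 4 arrays per group limit the precision. The code was tested on simulated data.

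Members and lists were chosen with earlier results of these data known. Named are all members, of each list up to 6 called genes with the largest differences, and the 3 genes most correlated with each member. Lists were described by counts and medians, without set tests, and list genes with no named probe were not analysed here. Labels give the beadchip of each array and so the pairing by replicate number. As a check, deviations of arrays on 1 beadchip correlated at 0.26 to 0.43 at 4 weeks and 0.05 to 0.22 at 16 weeks, against -0.12 and -0.05 between beadchips. Alternatives were no background correction, deposited values, median scaling, other filters, all probes, the beadchip block, only the compared groups, trend and robust variance (statmod 1.5.0), joint normalisation and each array left out. Promoters are RefSeq windows of GRCm38.p6.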

Additional observations from a re-analysis of the deposited data

Results flagged for a closer look

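Among 72 tests of 1 lung against the other 3 of its group (5 genes, 6 probes and 12 groups), 4 lungs stood apart by Dixon's ratio, and chance gives about 1 in 20. In A/J mice 4 weeks after GMA-MS, Depp1 of replicate 3 was the low one, at a log2 level of 10.77 against 11.58 to 11.73 in the other 3 lungs. In B6 mice 16 weeks after GMA-SS, Depp1 of replicate 2 was the high one, at 11.23 against 10.76 to 10.82. The second Angptl4 probe read 7.70 in replicate 4 of the B6 sham lungs of 4 weeks, against 7.88 in each of the other 3, while the brighter probe of the same lung read 11.11 within a range of 10.80 to 11.11. Cpt1a, at background throughout, read 7.44 in replicate 2 of the A/J GMA-SS lungs of 4 weeks against 7.41 to 7.42.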

How the results depend on the processing

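No alternative run turned the direction of a strain difference of Angptl4, Depp1, Pdk4 or Klf15. Differences from sham did change sign in some runs for each of these genes. For Depp1 this was so only with scaling to the median of all probes, in A/J mice of 16 weeks, at -0.01 after GMA-MS and -0.18 after GMA-SS. Scaling to the median of all probes left 0 members called between strains at 4 weeks and 0 at 16 weeks, in place of 2 each, and shifted the median log2 difference of all genes by as much as 0.78 in a fume comparison. Of all genes 149 of 8687 and 269 of 8706 were then called between strains, in place of 3348 and 4017. Scaling to the median of the genes tested, added after seeing the data, kept the median difference of all genes in fume comparisons between -0.09 and 0.05. Relative to that median, Depp1 differences from sham lay between 0.21 and 0.69, the same range as with the median of all probes. Both scalings differ only by a constant for each array, so these values had to agree and are no further check. With scaling to the genes tested the counts of members called did not change. The genes called between strains then fell to 1998 of 8687 at 4 weeks and 2872 of 8706 at 16 weeks. The deposited values gave Pdk4 0.91 at 4 weeks and 0.64 at 16 weeks. With the beadchip as a replicate block, 3 members were called between strains at 4 weeks, Angptl4 being added, and 2 at 16 weeks, and no other call of a member changed. The block raised the genes called between strains to 4695 of 8687 at 4 weeks and 4575 of 8706 at 16 weeks. With each array left out in turn, 2 to 3 members were called between strains at 4 weeks and 2 at 16 weeks. Against sham the range was 0 to 1 for A/J GMA-SS at 4 weeks, where Klf15 was called without A/J sham replicate 2, and 0 in the other 7 comparisons. Angptl4 at 4 weeks passed the strain threshold without A/J GMA-MS replicate 2, A/J GMA-SS replicate 2 or B6 GMA-MS replicate 4, its difference lying between 0.36 and 0.58 over the 24 arrays left out. As the genes were chosen by values of these same arrays, nothing is read from the calls of members in any run. Group sizes of 4 and signal at background, as for Cpt1a, limit what could be seen.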
